A study of Mus musculus with 6 samples.

Results

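The 7 mature miRNAs described here are those best known from blood and tissue leukocytes, measured in the mucosa of the mouse small intestine with and without the circular RNA Cdr1as. They were taken by name from a deposited table of 1831 miRNAs: mmu-miR-142a-3p, mmu-miR-142a-5p, mmu-miR-146a-5p, mmu-miR-146b-5p, mmu-miR-150-5p, mmu-miR-155-5p, and mmu-miR-223-3p. The series compared 3 wildtype littermates with 3 mice carrying a CRISPR/Cas9 deletion of the Cdr1as locus that is not restricted to a cell type (Cdr1as-/-, labelled cdr1as knockout), all on a C57BL/6J background and, per the study's methods, deprived of food before experiments. The age of the mice is not given in the sources used here, and no mouse was injured or otherwise treated according to the labels. Total RNA of each mouse was labelled with Cy3 and hybridized to 1 one-colour array, and the question was whether miRNA levels differ when Cdr1as is lost. The array reads small RNAs, so the loss of Cdr1as itself could not be checked on it.

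The gut mucosa holds a large leukocyte population in the lamina propria and among the epithelial cells, and a few miRNAs are known as products of these cells. miR-142 is made throughout the blood cell lineages, miR-150 is abundant in mature lymphocytes, and miR-223 marks granulocytes and other myeloid cells. miR-155, processed from the BIC transcript, is induced when lymphocytes and macrophages are activated, and miR-146a and miR-146b are induced by NF-kB and restrain TRAF6 and IRAK1 downstream of Toll-like receptors. miR-146 and miR-155 are not restricted to leukocytes and can also be induced in epithelial cells.

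The mature sequences of the members that matched a RefSeq entry are shown with the seed, bases 2 to 8, in capitals, since the seed sets which messages a miRNA can pair with and shows which members could share targets. The sequences of 6 of the 7 members matched RefSeq (build GRCm38.p6) exactly.
mmu-miR-142a-3p: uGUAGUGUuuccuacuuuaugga
mmu-miR-142a-5p: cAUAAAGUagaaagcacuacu
mmu-miR-146a-5p: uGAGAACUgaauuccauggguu
mmu-miR-146b-5p: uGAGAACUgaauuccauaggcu
mmu-miR-155-5p: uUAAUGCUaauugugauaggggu
mmu-miR-223-3p: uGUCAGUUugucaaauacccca
Among these 6, only mmu-miR-146a-5p and mmu-miR-146b-5p had a seed in common, and no other miRNA of the table carried the seed of any of the 6. The miR-146 pair came from separate genes, Mir146 at chr11:43374397-43374461 on the minus strand and Mir146b at chr19:46342762-46342870 on the plus strand, the latter inside the long noncoding RNA gene Gm36493. They were alike at 20 of 22 bases and differed by G18A and U21C, counted from the 5′ end of mmu-miR-146a-5p. Whether their probes share signal was not tested. Mir155 (chr16:84714140-84714204, plus strand) lies in its long noncoding host gene Mir155hg, and Mir223 (chrX:96242817-96242926, plus strand) lies in the long noncoding gene F630028O10Rik.

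Both miR-142a strands were members and came from 1 hairpin, Mir142, at chr11:87756864-87756927 on the plus strand, which overlaps the annotated Mir142b. In its sequence of 64 bases the 5p arm and then the 3p arm are in capitals, to show that these members share their source and are not independent measures of a cell type.
Mir142: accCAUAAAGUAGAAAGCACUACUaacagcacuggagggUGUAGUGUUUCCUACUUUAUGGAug

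All values called deposited here are the authors' normalized log2 values, 1 per miRNA and array. Each member was read by 5 probes, and 209 of the 210 member spots were well above background. The exception was 1 spot of mmu-miR-146b-5p on the array of Cdr1as-/- mouse 2, and no member spot was flagged or saturated. For miR-194-5p, an intestinal epithelial miRNA, the deposited values lay between 15.18 and 15.86 on the 6 arrays. No other tissue was measured, so this does not test the label small intestine.

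Littermate 3 stood apart from the other arrays. Over all 1831 miRNAs, its deposited values had a Spearman correlation of 0.715 with the mean of littermates 1 and 2, against 0.906 to 0.952 for the 3 Cdr1as-/- mice. Its signal before scaling was a median of 27.8-fold that of littermates 1 and 2, while the 3 Cdr1as-/- arrays lay at 3.12-fold, 1.29-fold, and 1.15-fold. All group comparisons are therefore given with and without littermate 3. The 3 littermates and Cdr1as-/- mouse 1 were on 1 slide and Cdr1as-/- mice 2 and 3 on another, and littermate 1 had a scan time of its own.

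The pan-leukocyte miR-142a strands had nearly equal levels in littermates 1 and 2, were far lower in littermate 3, and overlapped between the genotypes. mmu-miR-142a-3p had deposited log2 values of 11.62, 11.66, and 7.49 in littermates 1, 2, and 3 and of 11.53, 11.96, and 11.22 in Cdr1as-/- mice 1, 2, and 3. mmu-miR-142a-5p read 10.41, 10.50, and 5.73 in the littermates and 9.61, 10.68, and 9.86 in the Cdr1as-/- mice. For both strands the highest array was Cdr1as-/- mouse 2, the lowest was littermate 3, and the other Cdr1as-/- mice lay below littermates 1 and 2. The difference of mmu-miR-142a-3p, Cdr1as-/- minus littermates, was 1.31 (SE 1.14) on the log2 scale with 6 arrays and -0.075 (SE 0.28) without littermate 3 (limma, adjusted p = 0.99997 and 0.890). That of mmu-miR-142a-5p was 1.17 (SE 1.31) and -0.41 (SE 0.33), with adjusted p = 0.99997 and 0.486 by limma. In these bulk samples, fewer cells of a type and less miRNA per cell cannot be told apart.

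The lymphocyte miRNA mmu-miR-150-5p varied less. Littermates 1 to 3 had deposited values of 8.30, 8.34, and 6.73, and Cdr1as-/- mice 1 to 3 had 8.01, 8.44, and 7.83. Cdr1as-/- mouse 2 was again the highest array and littermate 3 the lowest, and the 5 arrays without littermate 3 spanned 0.60 log2 units. The difference was 0.30 (SE 0.49) with 6 arrays and -0.23 (SE 0.26) without littermate 3 (limma, adjusted p = 0.99997 and 0.618).

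The activation-induced mmu-miR-155-5p was the steadiest member on the deposited scale and the only one that was not low in littermate 3. In the littermates it read 7.40, 7.41, and 7.58, and in the Cdr1as-/- mice 7.22, 7.46, and 7.01. Littermate 3 held the highest value here, and all 6 arrays lay within 0.56 log2 units. The difference was -0.23 (SE 0.23) with 6 arrays and -0.17 (SE 0.24) without littermate 3 (limma, adjusted p = 0.99997 and 0.681).

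The NF-kB feedback miRNAs moved together and, without littermate 3, had the widest spread of the members beside miR-223. mmu-miR-146a-5p read 9.53, 9.45, and 5.80 in littermates 1 to 3 and 7.99, 9.97, and 8.55 in Cdr1as-/- mice 1 to 3. mmu-miR-146b-5p read 6.97, 6.78, and 3.85 in the littermates and 5.38, 7.09, and 6.09 in the Cdr1as-/- mice. In both, Cdr1as-/- mouse 2 stood above littermates 1 and 2 while Cdr1as-/- mouse 1 stood -1.49 and -1.50 log2 units from their mean. The difference of mmu-miR-146a-5p was 0.58 (SE 1.11) with 6 arrays and -0.65 (SE 0.49) without littermate 3 (limma, adjusted p = 0.99997 and 0.467). That of mmu-miR-146b-5p was 0.32 (SE 0.93) and -0.69 (SE 0.43), with adjusted p = 0.99997 and 0.411 by limma.

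The myeloid mmu-miR-223-3p ranked the Cdr1as-/- mice and littermate 3 as the miR-146 pair did, but had littermate 2 above littermate 1. Its deposited values were 7.54, 8.08, and 4.41 in littermates 1 to 3 and 6.53, 8.28, and 6.996 in Cdr1as-/- mice 1 to 3. It was the member in which littermates 1 and 2 differed most, by 0.54 log2 units. The difference was 0.59 (SE 1.03) with 6 arrays and -0.54 (SE 0.47) without littermate 3 (limma, adjusted p = 0.99997 and 0.499).

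**Figure D1:**
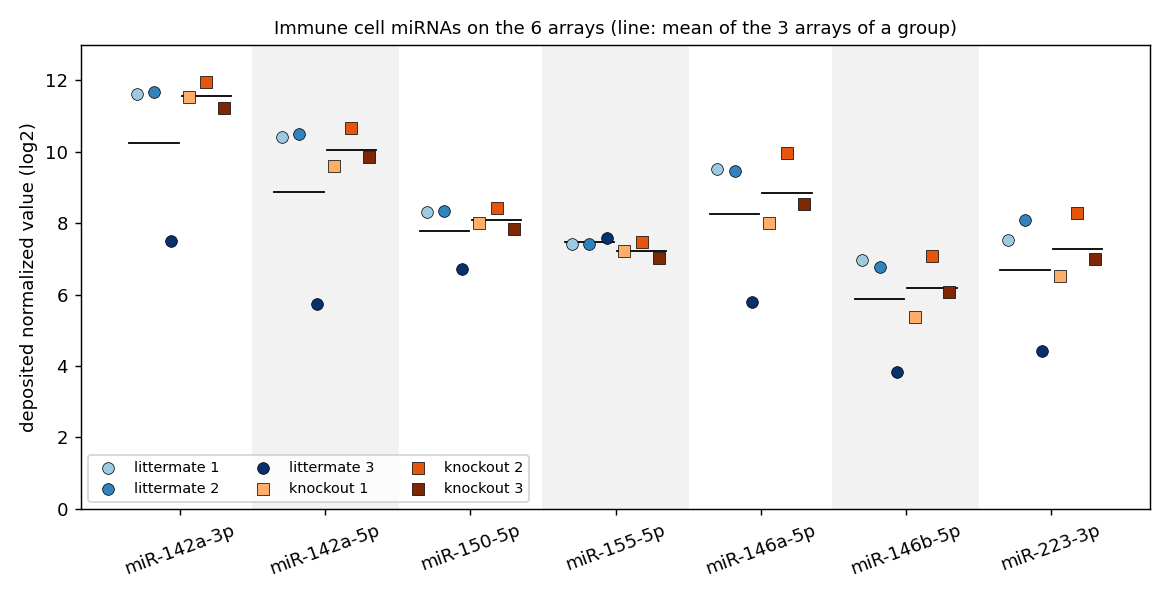
Deposited normalized log2 value of each of the 7 members on the 6 arrays, with circles for the littermates, squares for the Cdr1as-/- mice, and a line at the mean of the 3 arrays of a group. Littermate 3 is the lowest array for 6 members and the highest for miR-155-5p, and Cdr1as-/- mouse 2 is the highest Cdr1as-/- mouse for all 7.

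No member passed the test between the genotypes. With all 6 arrays, 6 members were higher and 1 lower in the Cdr1as-/- mice, with a median difference of 0.58, whereas the median over all 1831 miRNAs was -0.065. At an adjusted p below 0.05, limma called 0 of 7 members and 0 of 1831 miRNAs (0%). At an unadjusted p below 0.05 it called 0 of 7 members and 6 of 1831 miRNAs (0.328%), and the methods' t-test called 21 miRNAs at that level. The groups did not overlap in 0 of 7 members and in 58 of all miRNAs (3.17%). The two-sided exact permutation test gave p between 0.3 and 0.8 for the members, and its smallest possible p with 3 mice a group is 0.1.

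Without littermate 3 the signs turned. All 7 members were lower in the Cdr1as-/- mice, by differences from -0.69 to -0.075 with a median of -0.41, whereas 786 of all 1831 miRNAs were lower and the median over all was 0.095. Again 0 of 7 members passed, with 0 of 1831 miRNAs (0%) at an adjusted p below 0.05 by limma. At an unadjusted p below 0.05, the count was 0 of 7 members against 242 of 1831 miRNAs (13.2%), while the methods' t-test gave 174 of all miRNAs and 0 after adjustment. The groups overlapped in all 7 members, whereas they did not overlap in 736 of 1831 miRNAs (40.2%), so the members were not among the miRNAs with the clearest separation. Exact permutation gave p between 0.6 and 0.8, and 3 mice against 2 cannot go below 0.2. On the deposited scale, 34 of the 35 member probes were lower in the Cdr1as-/- mice than in littermates 1 and 2. The member values are means of these probes, so the probe count is not separate support for them.

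**Figure D2:**
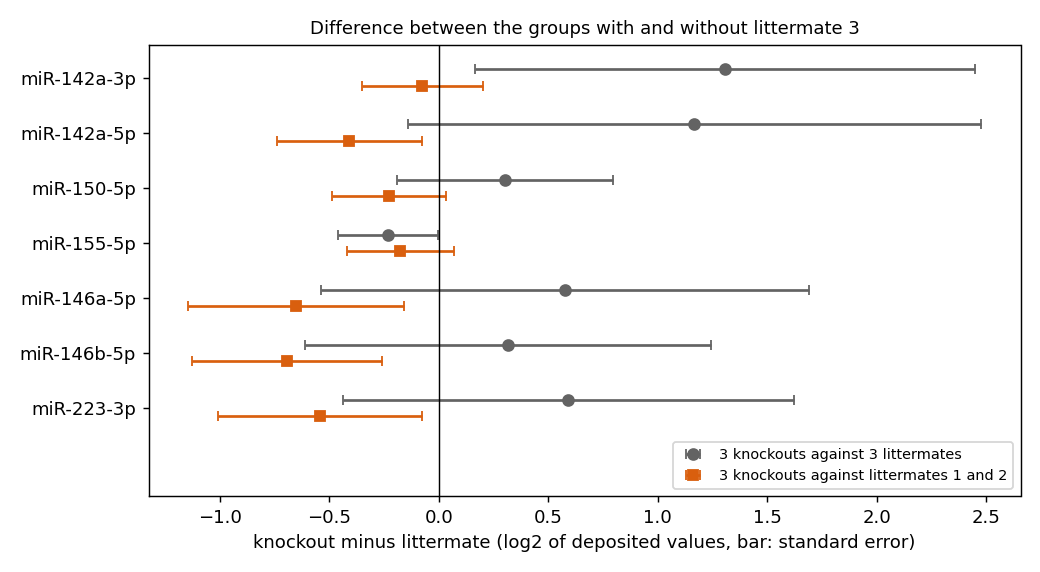
Difference of the deposited log2 values between Cdr1as-/- mice and littermates for the 7 members, with its standard error from limma, for the 3 littermates (circles) and for littermates 1 and 2 (squares). The circles lie above 0 except for miR-155-5p at -0.23, and all 7 squares lie below 0, between -0.69 and -0.075.

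The overlap without littermate 3 came from Cdr1as-/- mouse 2. In all 7 members, Cdr1as-/- mouse 2 read above both littermates 1 and 2, by 0.057 to 0.48 log2 units over their mean, and Cdr1as-/- mice 1 and 3 read below both. This order, described after the values were seen, was found in 98 of all 1831 miRNAs (5.35%) and in 33 of the 314 other miRNAs whose level in littermates 1 and 2 was at least that of the lowest member. The miR-142a strands share a hairpin, the miR-146 pair is alike in sequence, and all 7 were read on the same arrays. The 7 are therefore not independent counts of this order. The array of Cdr1as-/- mouse 2 had 47.8% of the miRNA probes well above background, against 76.9% to 100% on the other 5, and the part of this difference in the member values was not tested.

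Leaving out Cdr1as-/- mouse 2 together with littermate 3 moved 3 members past the test. mmu-miR-146a-5p then fell by 1.22 (SE 0.26), mmu-miR-146b-5p by 1.14 (SE 0.28), and mmu-miR-223-3p by 1.05 (SE 0.28) on the log2 scale, with adjusted p = 0.0258, 0.0302, and 0.0361 by limma. mmu-miR-142a-5p differed by -0.72, with an unadjusted p of 0.0117 and an adjusted p of 0.0663 by limma. The lymphocyte mmu-miR-150-5p at -0.40, mmu-miR-155-5p at -0.29, and mmu-miR-142a-3p at -0.27 did not pass. The calls of 3 of 7 members stood against 223 of 1831 miRNAs (12.2%) after adjustment, and the 4 members at an unadjusted p below 0.05 against 634 (34.6%). This comparison sets 2 mice against 2, with an array left out after its values were known. With Cdr1as-/- mouse 2 included, no call was made.

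The deviation of littermate 3 from the mean of littermates 1 and 2 was graded among the members. On the deposited scale it was -4.73 for mmu-miR-142a-5p, -4.15 for mmu-miR-142a-3p, -3.69 for mmu-miR-146a-5p, -3.40 for mmu-miR-223-3p, and -3.03 for mmu-miR-146b-5p. The lymphocyte mmu-miR-150-5p deviated by -1.59 and mmu-miR-155-5p by 0.17. The median deviation of all miRNAs was 0.39, and that of the 314 others at the members' level or above was 0.054, with quartiles of -3.07 and 2.13. As a rank within its own array, mmu-miR-142a-3p moved from the 98.7th and 98.8th percentiles of littermates 1 and 2 to the 84.6th in littermate 3, and mmu-miR-223-3p from the 88.3rd and 91.4th to the 42.6th. mmu-miR-155-5p stayed at the 85.4th, beside 87.3 and 87.5.

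The scanner signal before any scaling between arrays gave another picture of the same spots. The mean processed signal of mmu-miR-142a-3p over its 5 probes was 1909, 2428, and 1936 intensity units for littermates 1 to 3, and the Cdr1as-/- mice gave 3608, 2938, and 1588. Littermate 3 thus lay within the range of the other littermates before scaling and far below it after. For mmu-miR-155-5p the littermates gave 58.3, 69.7, and 2204 units, whereas the Cdr1as-/- mice gave 295.6, 86.7, and 76.6. Littermate 3 was 34.6-fold above littermates 1 and 2 in this member, and each of the 5 probes showed it, with folds from 32.7 to 36.6.

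The remaining members lay between these extremes in littermate 3. Relative to littermates 1 and 2, the unscaled signal was 0.82-fold for mmu-miR-142a-5p, 1.89-fold for mmu-miR-146a-5p, 2.35-fold for mmu-miR-223-3p, 2.79-fold for mmu-miR-146b-5p, and 9.81-fold for mmu-miR-150-5p. Only mmu-miR-155-5p exceeded the median of all miRNAs on that array, 27.8-fold. The probes of 1 miRNA did not always give 1 value, with folds from 5.39 to 21.5 for mmu-miR-150-5p and from 1.66 to 6.93 for mmu-miR-146b-5p.

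In Cdr1as-/- mouse 1 the scales also differed in sign. All 7 members were above littermates 1 and 2 before scaling, by 1.37-fold to 4.64-fold, and all 7 were below them on the deposited scale, by -1.50 to -0.12 log2 units. The median of all miRNAs on this array was 3.12-fold, and mmu-miR-150-5p at 3.62-fold and mmu-miR-155-5p at 4.64-fold were the 2 members above it. Cdr1as-/- mouse 2 was 1.34-fold to 1.78-fold above littermates 1 and 2 before scaling, with all 7 members above the array's median of 1.29-fold. Cdr1as-/- mouse 3 ranged from 0.64-fold to 1.20-fold, and 4 members lay below both littermates before scaling, against all 7 on the deposited scale. Which of the scales follows the amount of these miRNAs per mucosa cannot be told from the arrays, since the authors' scaling method is not stated in the sources used here.

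**Figure D3:**
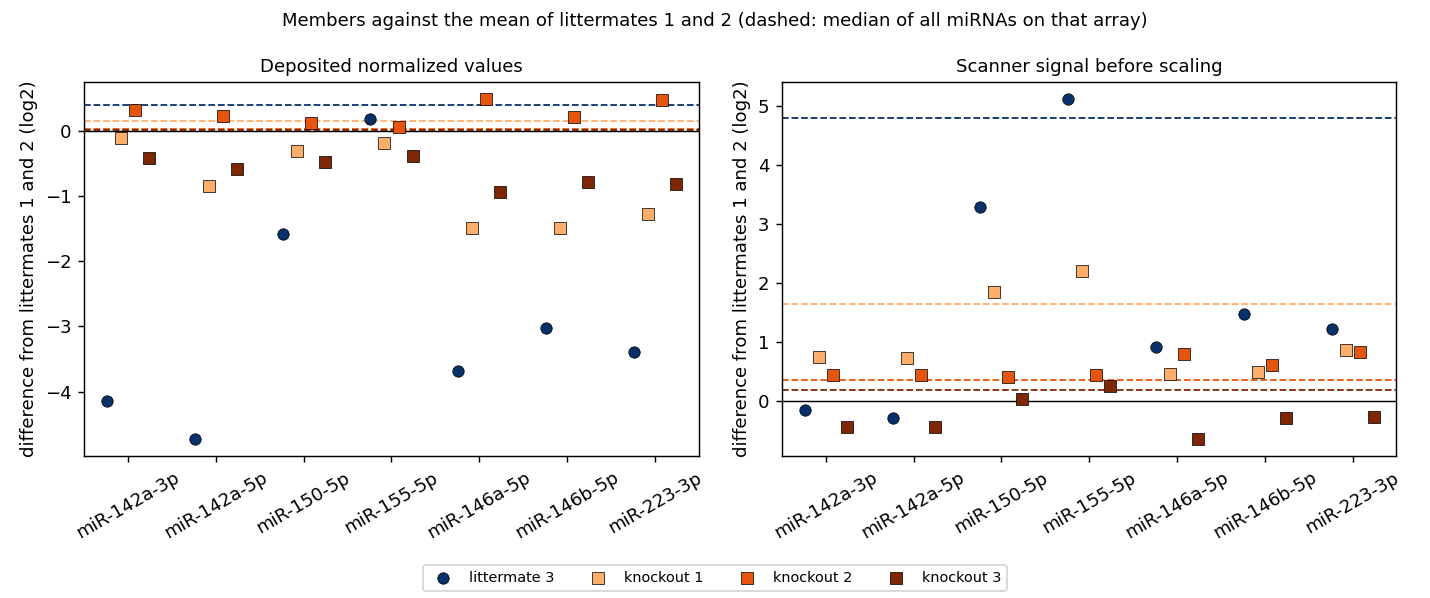
Log2 difference of each member from the mean of littermates 1 and 2 on 4 arrays, from the deposited values (left) and from the scanner signal before scaling (right), with a dashed line at the median of all 1831 miRNAs on that array. Littermate 3 is far below 0 for 6 members on the left, and on the right only miR-155-5p lies above its dashed line, while Cdr1as-/- mouse 1 is below 0 on the left and above 0 on the right for all 7.

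Within the shared slide, Cdr1as-/- mouse 1 alone stood against the littermates. Its deposited values differed from the mean of littermates 1 and 2 by -1.50 for mmu-miR-146b-5p, -1.49 for mmu-miR-146a-5p, -1.28 for mmu-miR-223-3p, and -0.85 for mmu-miR-142a-5p. The 3 smaller differences were -0.31 for mmu-miR-150-5p, -0.19 for mmu-miR-155-5p, and -0.12 for mmu-miR-142a-3p. With littermate 3 kept and the slide as a block, the differences ran from -0.49 to 1.27, and mmu-miR-146a-5p, mmu-miR-146b-5p, and mmu-miR-223-3p turned negative. The second slide held no littermate.

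The members varied together across the mice, apart from miR-155. Over the 6 arrays, the Pearson correlation of deposited values lay between 0.894 and 0.995 for the 15 pairs without mmu-miR-155-5p and between -0.446 and -0.169 for the pairs with it. Without littermate 3 (n = 5 arrays), all 21 pairs were positive, from 0.625 to 0.992, those with mmu-miR-155-5p from 0.726 to 0.986. The miR-146 pair correlated at 0.985 and the miR-142a strands of 1 hairpin at 0.759 over these 5 arrays. These are descriptions over few arrays that share slides and scaling.

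Outside the 7, the miRNAs whose values were most like the members' mean came from none of the lists given next, except miR-214-3p of the mesenchyme list. Over 6 arrays they were miR-23a-3p, miR-19b-3p, miR-195a-5p, miR-148a-3p, and miR-26b-5p, with correlations from 0.993 to 0.997. Over the 5 arrays without littermate 3 they were miR-214-3p, miR-93-5p, miR-101c, miR-3964, and miR-6975-5p, from 0.991 to 0.997. No name was in both sets of 5. miR-23a-3p, for example, read 9.31, 9.22, and 5.09 in the littermates and 7.95, 9.39, and 8.36 in the Cdr1as-/- mice. This is the array order of mmu-miR-146a-5p.

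On the deposited scale, the other strand of a member's hairpin often deviated the opposite way in littermate 3. There, mmu-miR-150-3p was 3.91 log2 units above littermates 1 and 2, where mmu-miR-150-5p was 1.59 below. mmu-miR-146b-3p was 2.24 above, mmu-miR-146a-3p 0.72 above, and mmu-miR-223-5p 0.39 above, each beside a 5p or 3p partner that was more than 3 log2 units below. mmu-miR-155-3p was the exception, at -1.81 beside 0.17 for mmu-miR-155-5p. Over all 1831 miRNAs, 1102 read above both littermates 1 and 2 in littermate 3. Before scaling, both strands of Mir150, Mir146b, Mir146, and Mir223 were above littermates 1 and 2 in littermate 3, the other strand by more than the member. The folds were 215 for mmu-miR-150-3p beside 9.81 for its member strand, 104 for mmu-miR-146b-3p beside 2.79, 46.1 for mmu-miR-146a-3p beside 1.89, and 37.5 for mmu-miR-223-5p beside 2.35. For Mir155 the unscaled fold was 6.13 for mmu-miR-155-3p beside 34.6 for the member. The other strands were dim in littermates 1 and 2, so these folds rest on small signals. They ran from 8.95 units for mmu-miR-146b-3p in littermate 1 to 35.5 units for mmu-miR-150-3p in littermate 2. The medians of all miRNAs on these 2 arrays were 9.79 and 12.7 units. Whether the spots of the other strands were above background was not examined.

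Without littermate 3, the strands of Mir146, Mir146b, Mir150, and Mir223 also differed in sign between the genotypes on the deposited scale, but not before scaling. Mir155 was the reverse. Its 5p and 3p strands differed by -0.17 and -0.97 on the deposited scale and by 0.97 and -0.090 before scaling. Of the 5 other strands, 4 were higher in the Cdr1as-/- mice, with a median difference of 0.31, while the 7 members were all lower. Over all miRNAs, 1045 of 1831 were higher, with a median of 0.095. Before scaling, 4 of the 5 other strands were again higher, from -0.090 to 1.79 with a median of 1.15 on the log2 scale. The 7 members were higher too, by 0.21 to 0.97, and the median of all miRNAs was 0.77. Littermates 1 and 2 had 6.62 and 6.36 for mmu-miR-150-3p, below the 7.90, 6.98, and 6.69 of the Cdr1as-/- mice. Its difference was 0.70 (SE 0.36), with an adjusted p of 0.388 by limma. mmu-miR-155-3p read 5.72 in both littermates and 4.39, 5.06, and 4.80 in the Cdr1as-/- mice, a difference of -0.97 (SE 0.27) with an unadjusted p of 0.00544 and an adjusted p of 0.247 by limma. It was the only strand of the member hairpins with an unadjusted p below 0.05. None of the 5 passed after adjustment, and the low signals of these strands in littermates 1 and 2 limit their genotype differences too.

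Further leukocyte miRNAs were mixed in direction as a list. Of 11 measured, among them the miR-181 family of lymphocytes and miR-342, 7 were lower and 4 higher in both comparisons, with medians of -0.13 with 6 arrays and -0.21 without littermate 3, and 0 passed in either. The miRNA of this list with the highest mean, miR-181d-5p, differed by -0.14 and 0.23 (limma, adjusted p = 0.99997 and 0.625). The array order seen in the 7 members held for 0 of the 11, against 98 of all 1831 miRNAs (5.35%). At that share, 0 of 11 does not set this list apart. Some of the 11 were dim before scaling. In littermates 1 and 2, miR-511-5p had 2.85 and 5.69 units and miR-326-3p 6.30 and 8.05, below the array medians of 9.79 and 12.7. In littermate 3 this list had a median deviation of 0.017, with values from -3.97 to 2.57. Those extremes were miR-342-3p and miR-342-5p, the strands of 1 hairpin.

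Markers of other mucosal cells were set beside the members. On the deposited scale, all 9 epithelial miRNAs read below both littermates 1 and 2 in littermate 3, with a median deviation of -3.08. Of all 1831 miRNAs, 556 (30.4%) did so. Before scaling, the epithelial median in littermate 3 was 0.89-fold. miR-194-5p differed between the genotypes by 0.19 with 6 arrays and 0.0077 without littermate 3. The median difference of the 9 was 0.84 with 6 arrays and -0.16 without littermate 3, and 0 of 9 passed. In the 3 Cdr1as-/- mice the epithelial median lay at -0.35, -0.070, and -0.062, while the member median lay at -0.85, 0.22, and -0.60. On the deposited scale the lists were thus both low in littermate 3 and opposite in sign in Cdr1as-/- mouse 2, and the difference between them was not tested.

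The 8 smooth muscle and mesenchyme miRNAs had medians of 0.29, 0.60, and -1.13 in the Cdr1as-/- mice, and miR-143-3p read 10.58, 10.49, and 5.76 in the littermates and 12.06, 11.55, and 9.32 in the Cdr1as-/- mice. Their median differences were 0.50 and 0.061. The array order of the members was found in 3 of 8, against 98 of all 1831 miRNAs (5.35%). In Cdr1as-/- mouse 2, all 8 read above both littermates 1 and 2, as did both miR-126a strands and all 7 members. On that array 777 of all 1831 miRNAs did so. The endothelial strands of miR-126a were 0.36 above littermates 1 and 2 in Cdr1as-/- mouse 2 and -1.01 in mouse 3 (medians of 2), with miR-126a-3p at -0.68 between the genotypes without littermate 3 (limma, adjusted p = 0.431). Of 4 erythroid miRNAs measured, miR-451a of red cells differed by -1.50 without littermate 3 (limma, unadjusted p = 0.0151, adjusted p = 0.270) and read 9.95 in littermate 1 and 8.03 in littermate 2. The median of the 4 was -0.17 with 6 arrays and -0.37 without littermate 3. The 4 neural miRNAs had medians of -0.0076 and 0.065, and miR-137-3p differed by 0.035 and 0.15. No miRNA of these lists passed after adjustment in either comparison, and the part of other cell types in the member values was not tested.

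**Figure D4:**
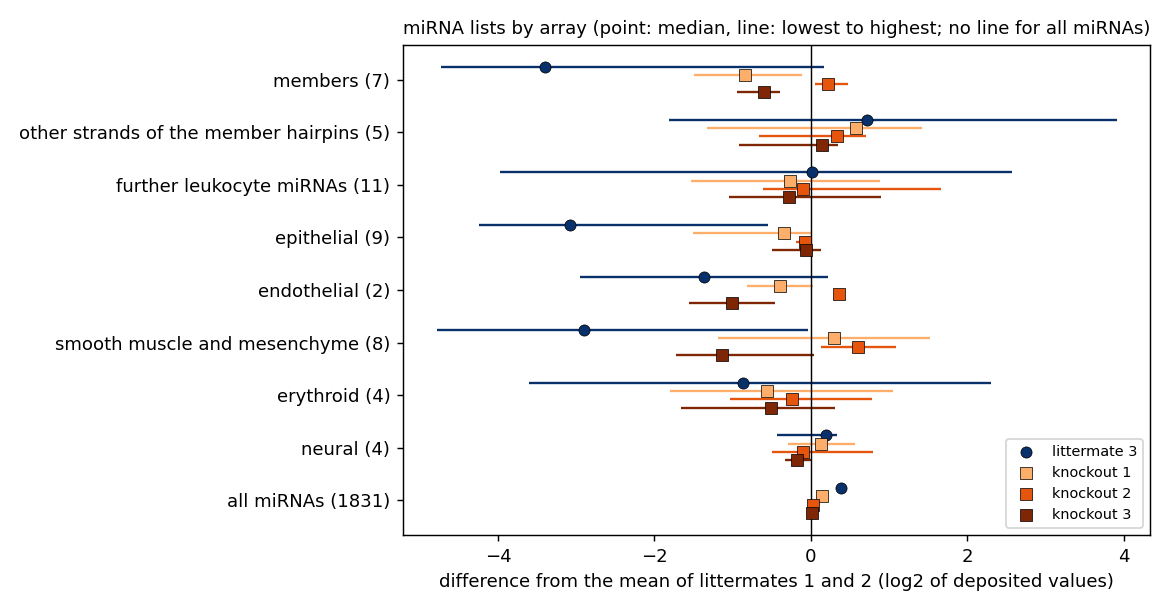
Median deviation from the mean of littermates 1 and 2 on the deposited log2 scale for each list of miRNAs on 4 arrays, with a line from the lowest to the highest miRNA of the list and the number measured in brackets. The members and the epithelial list are both about 3 log2 units down in littermate 3, with medians of -3.40 and -3.08, and in Cdr1as-/- mouse 2 all miRNAs lie above 0 in the members, the smooth muscle and mesenchyme list, and the endothelial list. On the array of Cdr1as-/- mouse 2, 777 of all 1831 miRNAs read above both littermates 1 and 2.

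Differences between lists within an array also depended on the scale, most for the epithelial miRNAs. Before scaling, the mean log2 signal of the members minus that of the epithelial miRNAs, taken relative to littermates 1 and 2, was 1.71 in littermate 3 and 0.91, 0.65, and -0.070 in Cdr1as-/- mice 1 to 3. From the deposited values it was -0.20 in littermate 3 and -0.33, 0.35, and -0.53 in the Cdr1as-/- mice, so the sign turned in littermate 3 and Cdr1as-/- mouse 1. Against the smooth muscle and mesenchyme miRNAs it was -0.27 in littermate 3 and -0.83, -0.40, and 0.42 in the Cdr1as-/- mice before scaling, and -0.34 and -0.92, -0.33, and 0.36 from the deposited values. Against the erythroid miRNAs it was -2.01 in littermate 3 and -0.13, 0.43, and 0.094 in the Cdr1as-/- mice before scaling. From the deposited values it was -2.16 in littermate 3 and -0.35, 0.45, and -0.040 in the Cdr1as-/- mice. The sign turned in Cdr1as-/- mouse 3, where both values were small. On neither scale did the members have a common direction relative to any of these 3 lists across the 3 Cdr1as-/- mice.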

How the data were processed

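Mucosal RNA of 3 littermates and 3 Cdr1as-/- mice was read on 6 one-colour small RNA arrays, and samples were grouped by the labels' genotype. The scanner output deposited by the authors holds spot intensities, background-subtracted by Agilent Feature Extraction 11.0.1.1 and not scaled between arrays. The study's methods name another array type, miRCURY LNA. The authors' deposited table gives normalized log2 values of 1831 miRNAs; how they were scaled or filtered is not given in the sources used here. Fold changes and p-values of the authors' own comparison in that table were not used. The array number limits the precision. No mouse had a repeat array, so the spread behind the p-values mixes differences between mice with those between arrays, slides, and scaling.

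The deposited values were compared with limma 3.58.1 (lmFit, eBayes; R 4.3.3) and adjusted by Benjamini-Hochberg over all 1831 miRNAs, with all arrays and without littermate 3, and by two-sided exact permutation. Scanner probes were assigned to miRNAs where the mean of 1 to 5 unlogged deposited probe values gave the miRNA value within 0.0002 log2, which placed 8437 probes. Unscaled signals are the scanner software's processed signal, averaged over a miRNA's probes. Folds of it are against the geometric mean of littermates 1 and 2. The fitting code was first tested on simulated data with known changes. The simulated means and spread came from the arrays other than littermate 3, so that test did not cover an array like it. Summaries used Python 3.11.15, pandas 2.3.3, NumPy 2.4.6, SciPy 1.17.1, and matplotlib 3.10.9.

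The members, the lists, and the tests were chosen with earlier results of these data known. Named miRNAs are the members, their other strands, the highest of each list, and the 5 most correlated with the members' mean. Values of miR-23a-3p, miR-511-5p, miR-326-3p, and the extremes miR-342-3p and miR-342-5p were given after they were seen. Alternatives covered scaling (the 75th percentile of detected or of all probes, quantile, and, chosen after seeing the data, no scaling), normexp background correction with an offset of 50, the mean over probes, a filter on dim miRNAs, the intensity trend, the methods' t-test, replicate and slide blocks, and each mouse left out. The deviations of same-numbered mice from their group means correlated at r = -0.76, 0.56, and -0.22 for numbers 1, 2, and 3. Littermates 1 and 2 gave nearly the same r with Cdr1as-/- mouse 1 (-0.76 and -0.81) and with mouse 2 (both 0.56). The group mean included littermate 3, so these values cannot tell whether the mice are paired.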

Additional observations from a re-analysis of the deposited data

How the results depend on the processing

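With 6 arrays, no member passed at an adjusted p below 0.05 under any alternative run, and 13 of 119 member values turned sign. Without scaling, mmu-miR-146a-5p, mmu-miR-146b-5p, and mmu-miR-150-5p differed by -0.10, -0.21, and -0.32; with the slide as a block, mmu-miR-146a-5p, mmu-miR-146b-5p, and mmu-miR-223-3p differed by -0.26, -0.49, and -0.15. Leaving out 1 mouse gave values from -0.075 to 2.01 for mmu-miR-142a-3p, -0.41 to 1.98 for mmu-miR-142a-5p, -0.65 to 1.21 for mmu-miR-146a-5p, -0.69 to 0.87 for mmu-miR-146b-5p, -0.23 to 0.58 for mmu-miR-150-5p, -0.35 to -0.12 for mmu-miR-155-5p, and -0.54 to 1.29 for mmu-miR-223-3p. The lower end of the 6 ranges that cross 0 came without littermate 3, and mmu-miR-146b-5p was also negative, at -0.13, without Cdr1as-/- mouse 2. With the replicate block, the member differences again ran from -0.23 to 1.31 and no miRNA was called. Whether same-numbered mice are pairs could not be told.

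Without littermate 3, 9 of 98 member values turned sign. With no scaling all 7 were positive, at 0.25 for mmu-miR-142a-3p, 0.25 for mmu-miR-142a-5p, 0.21 for mmu-miR-146a-5p, 0.28 for mmu-miR-146b-5p, 0.78 for mmu-miR-150-5p, 0.97 for mmu-miR-155-5p, and 0.48 for mmu-miR-223-3p, where the median of all miRNAs was 0.77. mmu-miR-155-5p was 0.043 with the mean over probes at the 75th percentile, and leaving out 1 further mouse moved mmu-miR-142a-3p from -0.27 to 0.10, the latter without Cdr1as-/- mouse 3. Such omissions gave 0 to 223 called miRNAs, 0 to 3 called members, and 0 to 4 members at an unadjusted p below 0.05, the highest each without Cdr1as-/- mouse 2; 2 miRNAs were called without littermate 2. Scaling by the 75th percentile of all probes and limma with an intensity trend each called 1 miRNA, no member. At an unadjusted p below 0.05, counts of all miRNAs were 242 as reported and 143 with normexp, 73 without littermate 1, 109 without littermate 2, and 634 without Cdr1as-/- mouse 2. The cause was not tested.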
